A study of Danio rerio with 3 samples.

Results

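The SoxB genes encode transcription factors that bind DNA through an HMG box and mark the neural progenitors of the vertebrate embryo. All 9 SoxB genes named for the comparison were found by symbol among the 25961 genes of the deposited table: the 6 SoxB1 genes sox1a, sox1b, sox2, sox3, sox19a and sox19b, and the 3 SoxB2 genes sox14, sox21a and sox21b. RNA was sequenced from whole zebrafish embryos of the Tuebingen strain collected at 24 hours post fertilization. Embryos had been injected at the 1-cell stage with 3 ng of a standard control morpholino, 3 ng of a morpholino against hnrnpaba, or 6 ng of that morpholino. Morpholinos are antisense oligomers that block translation or splicing of the RNA to which they pair, and hnrnpaba is a zebrafish counterpart of human HNRNPAB, which encodes an RNA-binding protein. Each group was 1 library made from 30 pooled embryos.

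Because each group is 1 library, differences could not be set against a replicate spread, no p-value was computed, and the comparisons describe these libraries and not the treatments. The control received 3 ng, so the 6 ng library differed from it in morpholino mass as well as in target. Levels are in FPKM, which scales a gene's fragments by its model length and the library's depth. Fragments recovered from the FPKM values gave library totals of 14589056 (control), 17748075 (3 ng) and 13557636 (6 ng), and they set the 95% exact intervals in parentheses, which cover counting error only. The hnrnpaba transcript itself measured 442, 459 and 342 FPKM in the control, 3 ng and 6 ng libraries. The sources used here do not say if its morpholino acts on translation or on splicing, so that level is no check of the labels.

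SoxB1 proteins are transcriptional activators that keep neural cells in the progenitor state, and SoxB2 proteins are mainly repressors that act against them. In zebrafish, sox2, sox3, sox19a and sox19b have overlapping roles in the early neural plate, and sox19b is also supplied by the mother. SoxB1 proteins often bind DNA next to a partner, such as a POU factor in neural progenitors or Pax6 in the lens.

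The gene models of the 9 members were compact. For 7 of them the model length recovered from the FPKM values equalled the genomic span, as in a gene with 1 exon. sox19a (2170 of 2258 bases) and sox19b (2561 of 3365 bases) were the 2 exceptions. sox2 (ENSDARG00000070913) lay on chromosome 22 from 37347896 to 37349967, minus strand, and sox3 (ENSDARG00000053569) on chromosome 14 from 32742701 to 32744464, minus strand. sox19a (ENSDARG00000010770) lay on chromosome 5 from 24199180 to 24201437, minus strand, and sox21b (ENSDARG00000008540) on chromosome 9 from 53276356 to 53277722, plus strand. The other members were sox1a on chromosome 9, sox1b on chromosome 1, sox19b on chromosome 7, and sox14 and sox21a on chromosome 6. These are the table's positions, on a genome build that the sources used here do not state. Other genes overlapped 2 members on the same strand, sox2ot at sox2 and si:ch211-143l19.3 at sox3. Fragments of overlapping genes, and of the similar HMG box sequences of paralogs, cannot be divided with certainty at gene level.

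**Figure D1:**
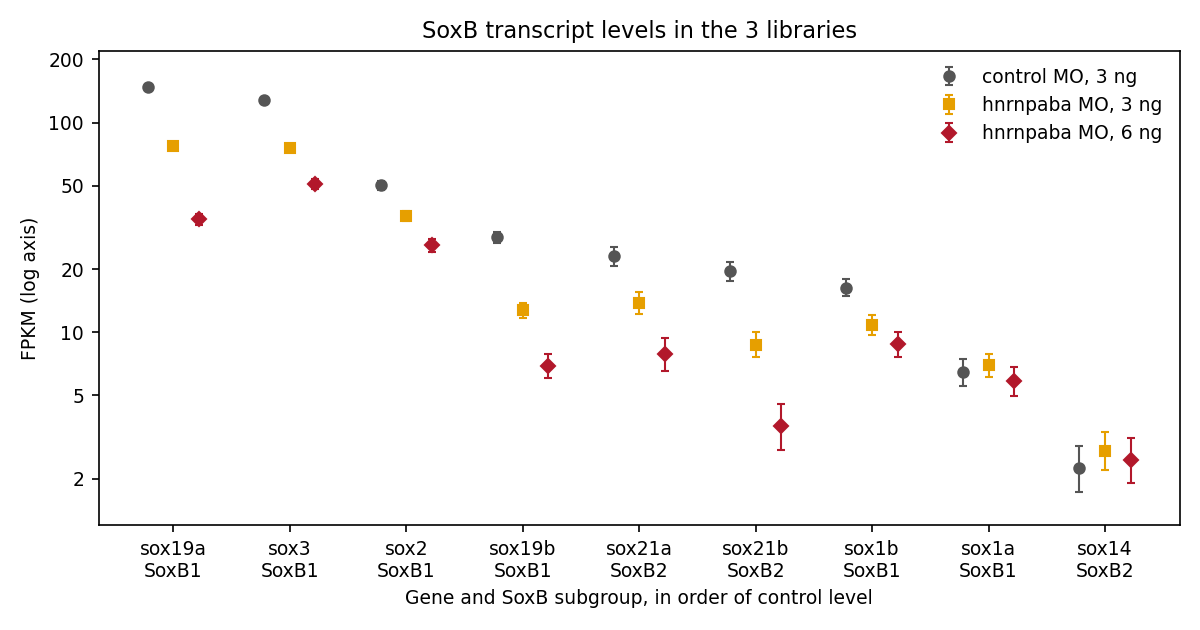
FPKM (log axis) of each SoxB gene in the control, 3 ng and 6 ng libraries, 1 library each, with 95% exact Poisson intervals as bars. The levels of 7 genes step down with dose, while the 3 bars of sox1a overlap each other, as do those of sox14. The sox1b bars at 3 ng and 6 ng also overlap.

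sox19a had the highest SoxB level in the control library. Of the 3 members highest there, sox19a, sox3 and sox2, it had the lowest ratio to the control at both doses. It measured 148 FPKM (144 to 152) in the control library. At 3 ng the level was 77.3 FPKM (74.5 to 80.1), and at 6 ng it was 34.5 FPKM (32.4 to 36.7). The 3 intervals did not overlap. The ratio to the control was 0.522 (0.498 to 0.547) with 3 ng and 0.233 (0.218 to 0.2497) with 6 ng. sox19b, its paralog, was lower by nearly the same factor at 6 ng. It measured 28.4, 12.7 and 6.91 FPKM in the control, 3 ng and 6 ng libraries, with ratios of 0.448 (0.404 to 0.496) and 0.243 (0.211 to 0.280).

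sox3, which is also expressed in cranial placodes, was the second most abundant member in the control. Its control level was 128 FPKM (123 to 132). It measured 75.3 FPKM (72.2 to 78.4) with 3 ng and 51.1 FPKM (48.3 to 54.0) with 6 ng. Its ratio to the control was 0.590 (0.559 to 0.622) with 3 ng and 0.401 (0.375 to 0.428) with 6 ng. sox2, a factor of neural and sensory progenitors, was lower by less. Its control level was 50.3 FPKM (47.8 to 52.9), and it measured 35.9 FPKM (34.0 to 37.9) with 3 ng and 26.0 FPKM (24.1 to 27.9) with 6 ng, with ratios of 0.713 (0.662 to 0.768) and 0.516 (0.472 to 0.564). The interval of the sox2 ratio at 6 ng did not overlap those of sox3, sox19a and sox19b.

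The 2 sox1 genes differed from each other. sox1b measured 16.3, 10.9 and 8.77 FPKM in the control, 3 ng and 6 ng libraries, with ratios of 0.665 (0.575 to 0.768) and 0.537 (0.453 to 0.635). sox1a measured 6.43, 6.95 and 5.85 FPKM in the same libraries. Its ratios, 1.08 (0.887 to 1.32) with 3 ng and 0.910 (0.729 to 1.13) with 6 ng, had intervals that included 1. A 2-fold lower level of sox1a thus lay outside the counting interval at either dose.

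Among the SoxB2 genes, sox21b was lower at both doses. Its control level was 19.5 FPKM (17.6 to 21.5), and it measured 8.74 FPKM (7.60 to 9.997) with 3 ng and 3.56 FPKM (2.75 to 4.53) with 6 ng. The ratios were 0.448 (0.377 to 0.531) and 0.183 (0.138 to 0.238), and at 6 ng the gene had 66 fragments, against 389 in the control. Its interval at 6 ng overlapped those of sox19a and sox19b, so these 3 genes could not be put in order by their ratios. sox21a measured 23.0, 13.8 and 7.84 FPKM in the control, 3 ng and 6 ng libraries, with ratios of 0.601 (0.513 to 0.703) and 0.341 (0.275 to 0.419). sox14, known in restricted groups of interneurons, was the scarcest member, at 2.26, 2.73 and 2.47 FPKM in that order. Its ratios of 1.21 (0.870 to 1.69) and 1.09 (0.762 to 1.57) rested on 64 fragments in the control, 94 at 3 ng and 65 at 6 ng, and both intervals included 1.

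**Figure D2:**
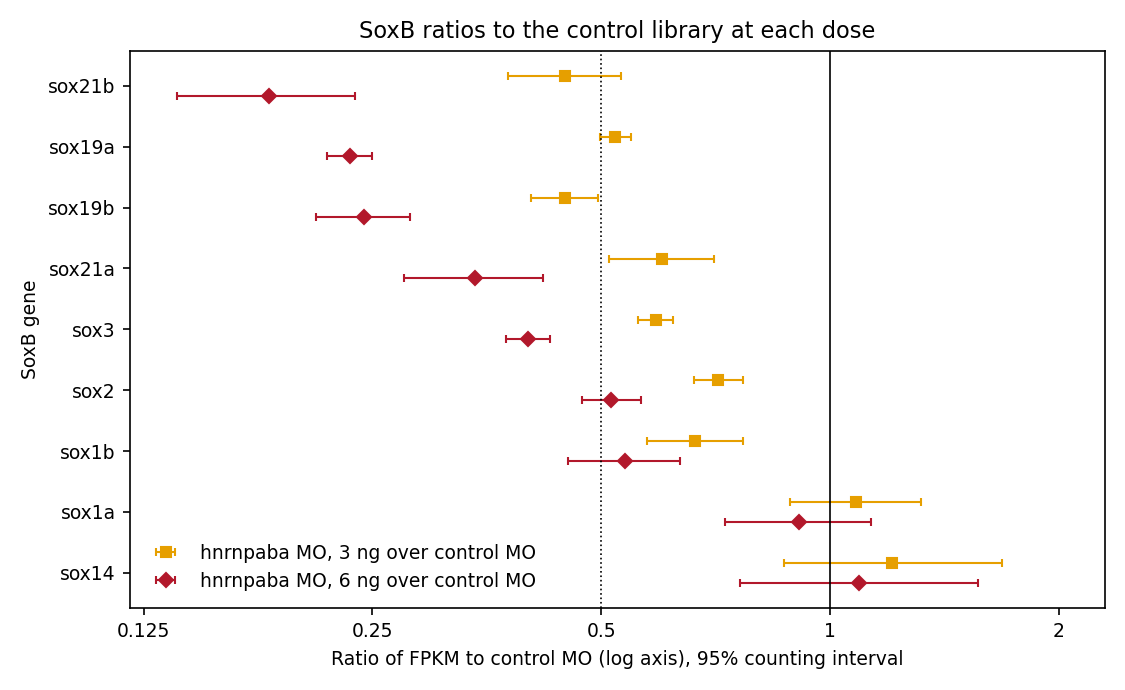
Ratio of FPKM to the control library (log axis) for each SoxB gene at 3 ng and at 6 ng, with 95% Clopper-Pearson counting intervals. The solid line marks equal levels and the dotted line a ratio of 0.5; sox21b, sox19a and sox19b lie at 0.183 to 0.243 at 6 ng, and sox1a and sox14 cross the solid line.

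The 9 genes were then read against all 16429 genes that averaged at least 1 FPKM over the libraries, on the scale of log2(FPKM + 1), which understates the difference of genes with low values. All 9 members passed that filter. Because the filter used the mean, a gene can pass it through the 1 library in which it is high. At 3 ng, 2 members (sox19b and sox21b) were at least 2-fold lower than in the control and 0 were higher, beside 2.2% of all genes lower and 3.68% higher. At 6 ng, 5 members (sox19a, sox21b, sox19b, sox21a and sox3) were at least 2-fold lower and 0 were higher, beside 4.53% of all genes lower and 6.28% higher. The median log2 difference of the 9 members was -0.70 at 3 ng and -1.30 at 6 ng, against medians of 0.02 and 0.08 over all genes. The 6 ng difference of sox21b, -2.17, was lower than that of all but 48 of the 16429 genes, and that of sox19a, -2.07, than all but 67. With a pseudocount of 5 FPKM the order of these 2 genes turned, to -1.52 for sox21b and -1.95 for sox19a. Subtracting the median of genes of like length changed the split of all calls from 361 lower and 604 higher to 440 and 488 at 3 ng, and from 745 lower and 1032 higher to 906 and 788 at 6 ng. The counts of SoxB members at least 2-fold lower were then 2 and 7. The 2 doses share the control library, so their values are not independent of each other.

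**Figure D3:**
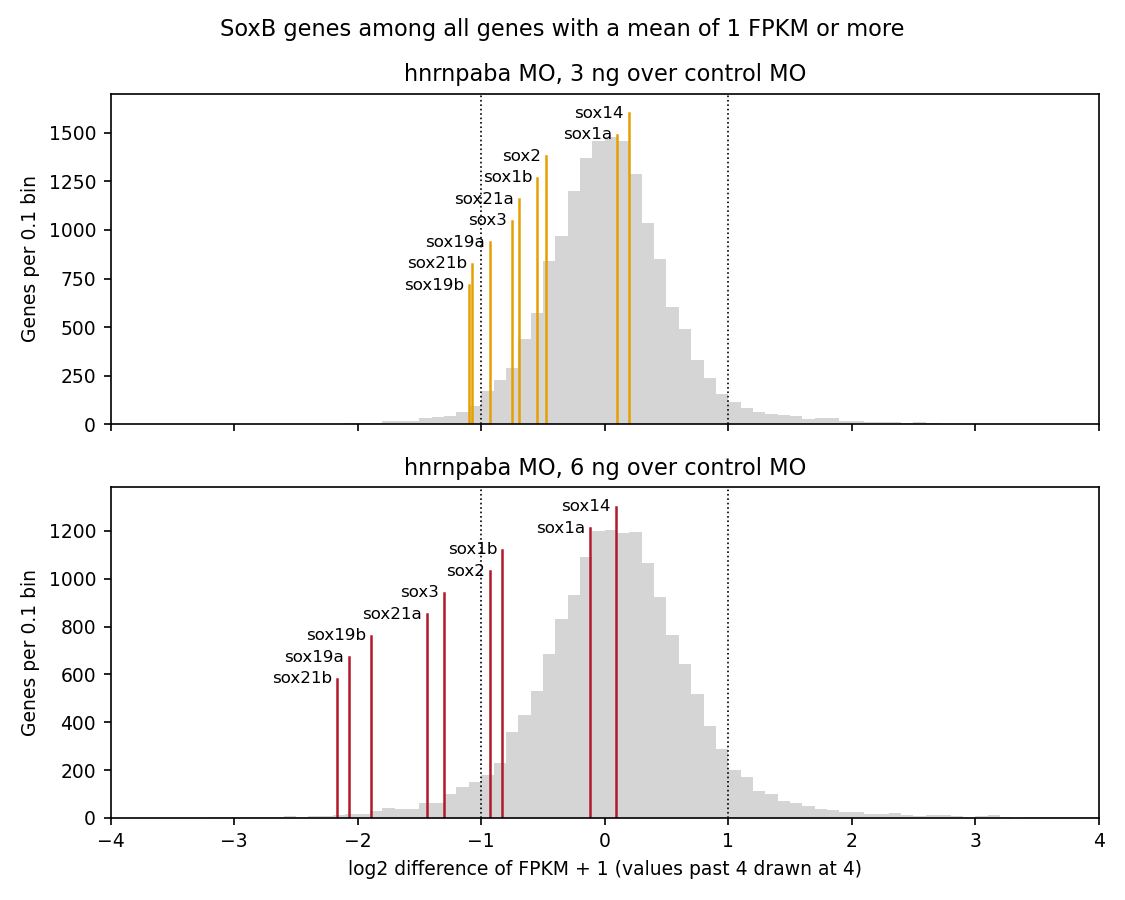
Numbers of genes by log2 difference of FPKM + 1 (bins of 0.1) at 3 ng and 6 ng over the control, for the 16429 genes that averaged at least 1 FPKM, with each SoxB gene as a labelled line (line heights only separate the labels). Dotted lines mark 2-fold; 2 SoxB genes lie below the lower one at 3 ng and 5 at 6 ng.

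The 6 ng and 3 ng libraries were compared without the control. The ratio of 6 ng to 3 ng was 0.408 (0.304 to 0.540) for sox21b and 0.447 (0.416 to 0.480) for sox19a, and these 2 genes were at least 2-fold lower at 6 ng, beside 0.992% of all genes lower and 1.11% higher. The ratio was 0.544 (0.466 to 0.633) for sox19b, 0.567 (0.454 to 0.705) for sox21a, 0.679 (0.633 to 0.728) for sox3, 0.723 (0.660 to 0.792) for sox2 and 0.808 (0.677 to 0.962) for sox1b. The intervals of sox1a, with a ratio of 0.842 (0.682 to 1.04), and sox14, with 0.905 (0.649 to 1.26), included 1. The median log2 difference of the members was -0.55, against 0.05 over all genes.

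The unequal losses changed the order of the SoxB genes. In the control the order ran sox19a, sox3, sox2, sox19b, sox21a, sox21b, sox1b, sox1a and sox14, and the counting intervals of neighbours overlapped for sox21a with sox21b and for sox21b with sox1b. At 3 ng sox19a and sox3 had overlapping intervals. At 6 ng sox3 stood above sox19a, with intervals apart, and sox21b stood next to sox14 at the bottom, with intervals that overlapped. The summed SoxB level was 422, 244 and 147 FPKM in the control, 3 ng and 6 ng libraries, so the 6 ng library held 0.348 of the control sum. The SoxB1 sum was 0.353 of the control and the SoxB2 sum 0.310 of it at 6 ng.

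Within that sum, sox19a made up 35.1% in the control, 31.6% at 3 ng and 23.5% at 6 ng. The share of sox3 was 30.2%, 30.8% and 34.8% in the same order, and that of sox2 was 11.9%, 14.7% and 17.7%. sox1a, which was not lower beyond counting error, made up 1.52%, 2.85% and 3.98%. That of sox1b was 3.87%, 4.45% and 5.97%, and that of sox14 was 0.535%, 1.12% and 1.68%. The share of sox21b was 4.62%, 3.58% and 2.42%. The library at 6 ng thus held less SoxB RNA, with a larger part of it from sox2, sox3, sox14 and the sox1 genes. In whole-embryo RNA, fewer neural progenitors and less SoxB RNA per progenitor cannot be told apart.

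**Figure D4:**
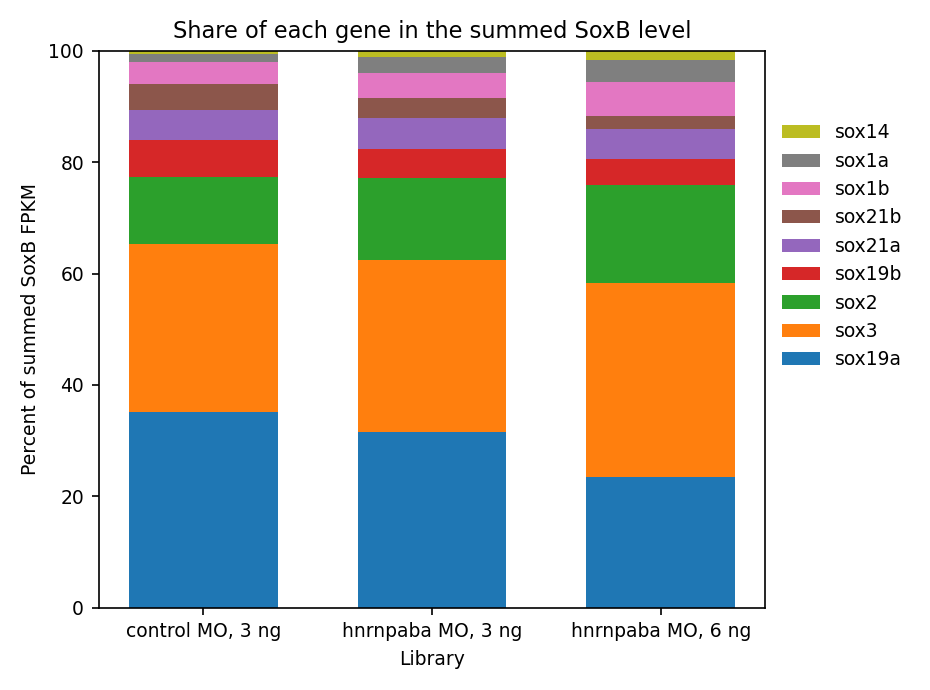
Share of each SoxB gene in the summed SoxB FPKM of the control, 3 ng and 6 ng libraries. The sox19a share stands at 35.1%, 31.6% and 23.5% and the sox2 share at 11.9%, 14.7% and 17.7%.

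The balance within each paralog pair was compared between the libraries. The ratio of sox1a to sox1b, per length, was 0.394 (0.329 to 0.470) in the control, 0.640 (0.540 to 0.758) with 3 ng and 0.667 (0.538 to 0.826) with 6 ng, with the control interval apart from both others. The ratio of sox21a to sox21b was 1.18 (1.02 to 1.36) in the control, 1.58 (1.32 to 1.90) with 3 ng and 2.201 (1.62 to 3.02) with 6 ng, and the control and 6 ng intervals did not overlap. The ratio of sox19a to sox19b was 5.21 (4.88 to 5.58) in the control, 6.08 (5.56 to 6.65) with 3 ng and 4.996 (4.34 to 5.77) with 6 ng. The control interval overlapped that of either dose, which does not show that the balance was kept. At 3 ng the ratios of the 2 genes to the control, 0.522 (0.498 to 0.547) for sox19a and 0.448 (0.404 to 0.496) for sox19b, had intervals apart.

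Most of the partner factors were lower. Of 8 POU and Pax6 genes, 3 were at least 2-fold lower at 3 ng and 7 at 6 ng, beside 2.2% and 4.53% of all genes. Of these 8 genes, 0 were at least 2-fold higher at either dose, beside 3.68% and 6.28% of all genes. Their median log2 differences were -0.71 and -1.64. pou3f1, which encodes a neural POU factor, measured 32.7, 10.8 and 4.09 FPKM in the control, 3 ng and 6 ng libraries, a ratio of 0.125 (0.105 to 0.147) at 6 ng. pou3f2b measured 22.2, 9.95 and 2.998 FPKM in the same order, and pou3f3b 42.9, 18.01 and 7.499 FPKM. pax6a, an eye and neural tube factor, stood at 19.8, 13.2 and 7.08 FPKM. The remaining member, pou5f3, which acts with SoxB1 factors when the zygotic genome is activated, was at 1.63, 2.37 and 1.94 FPKM.

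Other Sox families did not share one direction. Of 17 genes of the SoxC, SoxD, SoxE and SoxF groups 12 passed the filter, with median log2 differences of -0.07 at 3 ng and 0.04 at 6 ng. At least 2-fold lower were 1 at 3 ng and 3 at 6 ng, beside 2.2% and 4.53% of all genes. The SoxC genes sox11a and sox11b, expressed in neural progenitors and young neurons, stood at 68.6, 34.8 and 30.4 FPKM and at 37.2, 18.2 and 14.2 FPKM in the control, 3 ng and 6 ng libraries. The SoxC genes sox4a (26.8, 28.9 and 29.5 FPKM) and sox4b (8.59, 15.3 and 16.04 FPKM) were not lower. In SoxD, sox13 stood at 19.98, 8.80 and 7.78 FPKM, the third gene at least 2-fold lower at 6 ng, while sox5 was at 20.6, 15.5 and 18.1 FPKM and sox6 at 13.9, 13.3 and 12.5 FPKM. In SoxE, the neural crest gene sox10 was higher, at 12.3, 17.7 and 20.6 FPKM. sox9a stood at 16.2, 15.2 and 19.7 FPKM, with a ratio of 1.22 (1.07 to 1.39) at 6 ng, beyond counting error. sox9b stood at 18.2, 19.3 and 19.9 FPKM, and the intervals of its ratios to the control included 1.

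**Figure D5:**
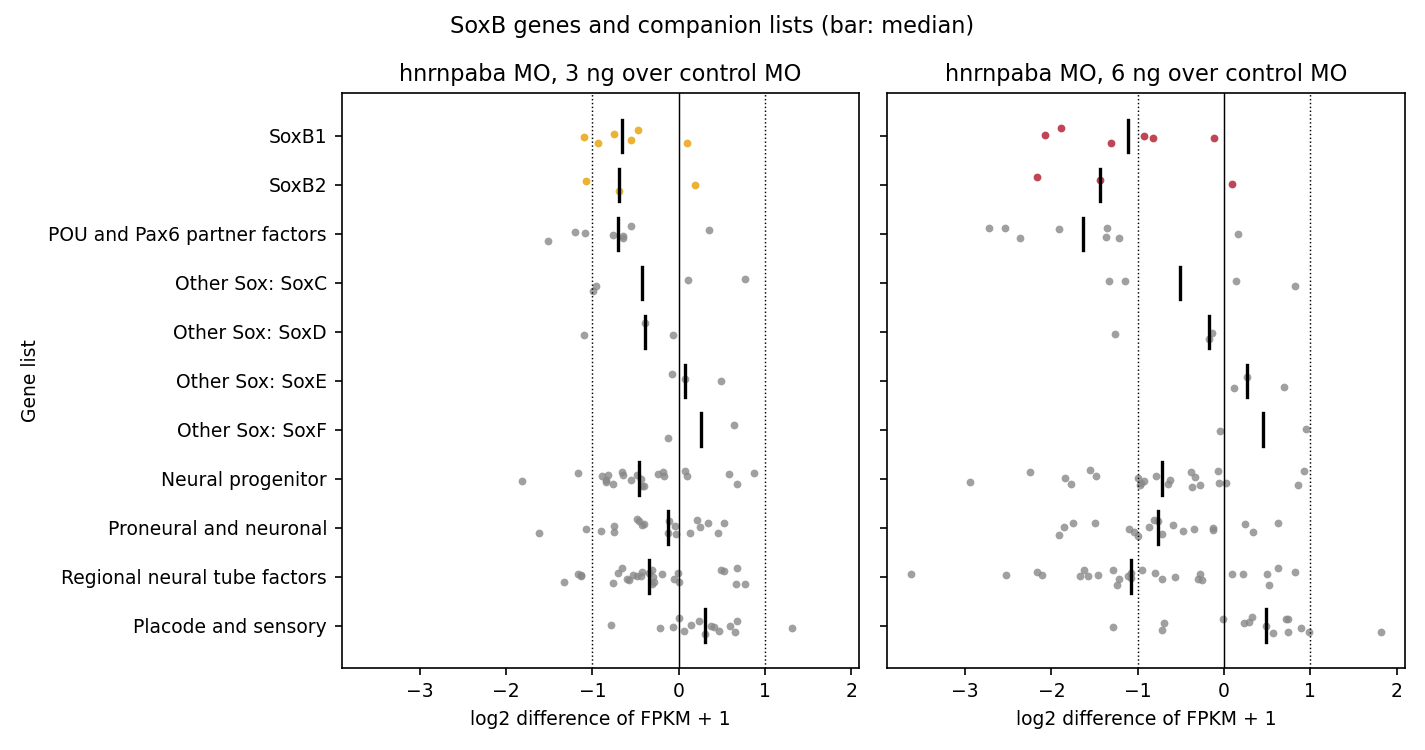
log2 difference of FPKM + 1 at 3 ng and 6 ng over the control for the SoxB genes (coloured) and companion lists (grey), 1 point per gene that averaged at least 1 FPKM, black bars at the medians and dotted lines at 2-fold. At 6 ng the medians are -1.12 for SoxB1, -1.44 for SoxB2, -1.64 for the POU and Pax6 genes and 0.49 for placode genes.

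Other neural progenitor genes had negative log2 differences for 17 of 22 measured genes at 3 ng and 19 at 6 ng, beside 48.1% and 44.0% of all genes. Of these 22 genes, 2 were at least 2-fold lower at 3 ng and 7 at 6 ng, with 0 higher and medians of -0.46 and -0.72. Over all genes, 2.2% were at least 2-fold lower at 3 ng and 4.53% at 6 ng, and 3.68% and 6.28% were higher. fabp7a, a radial glia gene, stood at 49.1, 13.3 and 5.50 FPKM in the control, 3 ng and 6 ng libraries, the Notch ligand gene dla at 32.2, 13.8 and 5.99 FPKM, and the Notch-responsive gene her4.2 at 12.4, 6.60 and 2.74 FPKM. In the other direction, her6 stood at 39.8, 64.3 and 76.3 FPKM and her9 at 48.6, 90.2 and 89.0 FPKM, both less than 2-fold from the control. Unlike her4.2, her4.1 stood at 5.84, 9.24 and 5.59 FPKM. The summed level of that list was 733, 583 and 477 FPKM in the same order. Of 19 proneural and neuronal genes, 2 were at least 2-fold lower at 3 ng and 7 at 6 ng, with 0 higher and medians of -0.12 and -0.76. Those lower at 6 ng included the proneural genes ascl1b (18.4, 10.5 and 4.17 FPKM) and neurod4 (29.2, 15.2 and 7.39 FPKM) and onecut1 (7.30, 1.70 and 1.47 FPKM). Negative differences were found for 13 of the 19 genes at 3 ng and 16 at 6 ng. In the other direction, stmn2b (25.5, 37.2 and 32.3 FPKM), gap43 (39.7, 50.5 and 47.1 FPKM) and isl2a (15.7, 21.9 and 24.7 FPKM) were higher at both doses. The summed level of the 19 genes was 539, 458 and 351 FPKM.

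Genes of neural tube regions and of placodes were also counted. Of 27 regional neural tube genes, 4 were at least 2-fold lower at 3 ng and 14 at 6 ng, beside 2.2% and 4.53% of all genes. Of these 27 genes, 0 were at least 2-fold higher at either dose, beside 3.68% and 6.28% of all genes. The medians were -0.35 and -1.07. Negative differences were found for 21 of the 27 genes at each dose, beside 48.1% and 44.0% of all genes. Among those at least 2-fold lower at 6 ng, dmbx1a passed the filter through its control level. It measured 1.88, 0.930 and 0.367 FPKM in the control, 3 ng and 6 ng libraries. The most negative differences at 6 ng were those of olig2 of the ventral cord (97.7, 42.8 and 6.96 FPKM), the midbrain-hindbrain gene en2b (8.71, 6.82 and 0.687 FPKM) and the interneuron progenitor gene dbx1b (17.4, 10.3 and 3.11 FPKM). The 6 genes with positive differences at 6 ng were emx3 (0.82), six3a (0.62), six3b (0.52), gbx2 (0.49), mafba (0.22) and rx3 (0.10). Placodes also express sox2 and sox3. Of 15 placode and sensory genes, 0 were at least 2-fold lower and 1 was higher at 3 ng, and 1 was lower and 1 higher at 6 ng, with medians of 0.31 and 0.49. At 3 ng these counts stand beside 2.2% lower and 3.68% higher over all genes. At 6 ng, 1 of 15 in each direction is near the 4.53% lower and 6.28% higher over all genes. The higher gene was the otic and epidermal factor foxi1 (4.58, 12.8 and 18.7 FPKM), and the lower one at 6 ng was pax2b (2.04, 0.765 and 0.251 FPKM). pax2b averaged 1.02 FPKM and also passed the filter through its control level.

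Genes not particular to the nervous system also differed in these libraries, and their part in the SoxB values was not tested. The shares of all genes at least 2-fold lower were 2.2% at 3 ng and 4.53% at 6 ng, and 3.68% and 6.28% were higher. Negative differences were found for 48.1% and 44.0% of all genes. A count of 1 in a list of 3 to 5 genes says little beside these shares. All 12 S phase genes measured had lower levels than in the control at both doses, 3 of them at least 2-fold at 3 ng and 8 at 6 ng, and their sum was 1481, 878 and 713 FPKM in the control, 3 ng and 6 ng libraries. All 6 p53 target genes were at least 2-fold higher at both doses, with sums of 382, 2129 and 2270 FPKM. Red cell markers were at least 2-fold higher for 4 of 5 genes at 3 ng and 5 of 5 at 6 ng, with sums of 325, 805 and 726 FPKM. Notochord markers were at least 2-fold higher for 2 and 3 of 4 genes, with sums of 532, 807 and 999.6 FPKM. Epidermal markers, the most abundant, were at least 2-fold higher for 0 and 1 of 5 genes, with sums of 8905, 10118 and 13044 FPKM. Of these 5 genes, 0 had negative differences at either dose. Muscle markers were at least 2-fold higher for 0 and 1 of 5 genes, with sums of 6354, 6519 and 5147 FPKM. Of these 5 muscle genes, 1 had a negative difference at 3 ng and 3 at 6 ng, and 0 were at least 2-fold lower. Of 3 lens markers measured, 2 were at least 2-fold lower at each dose. The other, foxe3, stood at 1.49, 1.94 and 3.62 FPKM. Another lens marker, cryaa, did not pass the filter, at 0.339, 0 and 0.052 FPKM. Heart markers were at least 2-fold lower for 0 and 1 of 3 genes, and neural crest markers were past 2-fold for 0 of 4 genes at both doses.

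Genes whose pattern was most like that of the SoxB genes were sought among 5112 other named genes that averaged at least 10 FPKM, by the distance between pairs of log2 differences at 3 ng and 6 ng. A pattern here rests on 3 libraries. Genes near the SoxB medians included abr, which encodes a regulator of small GTPases, the glial glutamate transporter gene slc1a3a, pou3f3a and the lipase gene lpl, at distances of 0.048 to 0.10. There were 37 genes within 0.25 of the SoxB medians and 149 within 0.25 of sox2, the nearest being haus3, asf1ba and mfsd2ab. For sox19a there were 5 genes within 0.25, the nearest being the keratin gene krtt1c19e at a distance of 0.19, s1pr1 at 0.22 and neurod4 at 0.22.

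Of the 18 genes next to the SoxB genes on either side, 13 averaged at least 1 FPKM, with median log2 differences of 0.01 at 3 ng and 0.03 at 6 ng. At 6 ng 1 of them was at least 2-fold lower and 1 higher, near the 4.53% lower and 6.28% higher over all genes. The lower one was dct, the melanin synthesis gene beside sox21b, which measured 27.2, 13.4 and 4.36 FPKM in the control, 3 ng and 6 ng libraries. The higher one was rev1, a DNA polymerase gene beside sox1a, at 5.78, 10.8 and 13.6 FPKM. Beside sox19b, eif4a1a had a log2 difference of 0.16 at 6 ng and mpdu1b of 0.67, and beside sox19a, mpdu1a had one of -0.61. Of the overlapping transcripts, sox2ot measured 2.34, 1.21 and 1.52 FPKM, and si:ch211-143l19.3, at sox3, 1.29, 1.42 and 1.08 FPKM.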

How the data were processed

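The authors deposited 1 table of FPKM values for 25961 genes and 3 libraries, with Ensembl identifiers, symbols and positions. Per the labels' protocols, BGISEQ-500 reads were mapped to the zebrafish genome; the sources used here name no aligner, counting tool, build, annotation or strandedness. The control column is named for a control at 24 hours, with no morpholino or dose, and was assigned to the 1 control library of the series.

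Library totals were recovered from genes whose length equals their span, since FPKM is then a whole number of fragments over a known length. For each other gene the shortest length giving whole fragments in all 3 libraries, within at most 0.05 fragments, was taken. This solved 25959 genes (99.99%), summing to 94.4% to 94.6% of the totals. A length too short by a common factor would widen the intervals. The recovery and the 2-fold rule were tested on simulated data drawn with the recovered lengths. That test could not show if a length recovered from the real data is too short by a common factor.

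Differences are log2 of (FPKM + 1) ratios, with 1 FPKM as pseudocount, over the 16429 genes that averaged at least 1 FPKM. Ratios without a pseudocount have 95% Clopper-Pearson intervals conditional on the fragments of both libraries, and levels have exact Poisson intervals. The members and gene lists were chosen with earlier results of these data known, so no list is independent evidence. The text names all members and, per list, up to 3 lowest and 2 highest genes past 2-fold at 6 ng, other Sox genes averaging at least 10 FPKM, the genes nearest in pattern (clone names left out) and chromosome neighbours. In addition, pax6a, pou5f3, sox2ot, cryaa, foxe3, her4.1, her6, her9 and dmbx1a were added after their values were seen. So were stmn2b, gap43, isl2a, sox7, sox18 and the regional genes with positive differences. Not every gene that this rule names is reported here. Of 166 list symbols 158 matched the table's symbol and 6 the table of gene names, and 2 were not matched. Python 3.11.15, NumPy 2.4.6, pandas 2.3.3, SciPy 1.17.1 and Matplotlib 3.10.9 were used.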

Additional observations from a re-analysis of the deposited data

How the results depend on the processing

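The counts of SoxB members past 2-fold, the members' median and each member's log2 difference were recomputed with other settings. So were the counts and the median of all genes. The settings were pseudocounts of 0.1 and 5 FPKM and none, no filter, and a mean of 5 FPKM or more. All 9 members passed the main filter, so leaving it out could not change their values. The mean of 5 FPKM or more kept 8 members, without sox14. Further settings were rescaling to equal sums or by the median ratio, and subtracting the median of genes of like length. Values of companion lists, sums, shares, paralog ratios, pattern distances and chromosome neighbours were not recomputed. A pseudocount of 5 FPKM left 0 members at least 2-fold lower at 3 ng, in place of 2, and 1 at 6 ng against 3 ng, in place of 2. With the other settings the number lower was 2 or 3 at 3 ng, 5 to 7 at 6 ng, and 2 at 6 ng against 3 ng, and 0 members were higher in any. The median of the members lay between -0.84 and -0.57 at 3 ng, between -1.48 and -1.13 at 6 ng, and between -0.65 and -0.51 at 6 ng against 3 ng. The 7 members lower beyond counting error had negative differences in every setting. sox14 at 6 ng, within counting error of the control, ranged from -0.05 to 0.13. No paired analysis was possible because each group has 1 library, and for the same reason no library could be left out.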
